A study of Rattus norvegicus with 54 samples.

Results

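The livers described here came from male Sprague-Dawley rats, aged 9 weeks by the labels, that were killed 24 h after 1 oral gavage of acetaminophen (APAP, 1250 mg/kg, time point D2) or of its vehicle alone (0.5% methylcellulose). The small RNA of 3 livers per group was sequenced, and these 6 libraries are 6 of the 54 in the series, which also covers kidney, plasma and urine and the toxicants cisplatin and CCl4. Every line of the count table was examined, 832 in all, of which 507 held at least 1 read in the 6 libraries and 249 were deep enough to test. A mature miRNA made from several gene copies can occupy several lines, so the 249 lines stood for 217 distinct mature miRNAs. The rats were fasted overnight before death and anesthetized with ketamine, xylazine and acepromazine before exsanguination. Each library is 1 animal, and 3 of the 4 animals of a group were sequenced.

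A miRNA is a short RNA cut from 1 arm of a hairpin precursor, which guides the Argonaute complex to messenger RNAs that pair with its seed, the bases 2 to 8 from its 5′ end. One arm usually accumulates (the guide) and the other (the passenger) is mostly degraded, and a name ends in 5p or 3p after its arm. An overdose of APAP is oxidized in hepatocytes around the central vein to a reactive quinone imine that exhausts glutathione and kills those cells, and neutrophils and monocytes then enter the damaged zone. A piece of liver therefore holds hepatocytes, resident macrophages, endothelial, stellate and bile duct cells and blood, and its miRNA levels sum over all of them.

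The liver miRNA profile changed little, and the change was concentrated in 7 mature miRNAs. Levels of miR-155-5p, miR-146b-5p, miR-223-3p, miR-21-3p, miR-92a-1-5p and miR-322-5p rose after APAP, from 1.53-fold for miR-322-5p to 5.25-fold for miR-155-5p, and miR-3559-3p fell to 0.458 of its vehicle level. Among 29 tested miRNAs of a hepatocyte list none passed the test in either direction. For the edgeR quasi-likelihood test with Benjamini-Hochberg adjustment, 8 of the 249 lines had an adjusted p under 0.05 (3.21%), 7 of them higher after APAP (2.81%) and 1 lower (0.402%). miR-322-5p fills 2 of the 7 higher lines, and with 1 line per mature miRNA it was not called. DESeq2 on the 6 libraries called 5 of the 7, all but miR-322-5p and miR-3559-3p. A DESeq2 fit of all 54 libraries, with a prior on fold changes, called miR-155-5p alone of the 7.

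The sequences of these 7 miRNAs are given to show that no 2 of them share a seed. Mature sequences are those of RefSeq (assembly GRCr8), written 5′ to 3′, and capitals mark the seed.
miR-155-5p: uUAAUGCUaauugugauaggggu
miR-146b-5p: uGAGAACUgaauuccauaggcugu
miR-223-3p: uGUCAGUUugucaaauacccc
miR-21-3p: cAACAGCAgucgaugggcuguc
miR-92a-1-5p: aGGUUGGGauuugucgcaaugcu
miR-322-5p: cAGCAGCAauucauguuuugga
miR-3559-3p: aUGUAGUAcugagucugucgug
A sequence was found for 195 of the 217 tested mature miRNAs. These had 146 different seeds, 27 seeds belonged to at least 2 tested miRNAs, and 0 seeds had more than 1 member past the test. In GRCr8 the products lie at chr11:37261117-37261139 on the plus strand (miR-155-5p), chr1:255144874-255144897 on the plus strand (miR-146b-5p), chrX:65151450-65151470 on the plus strand (miR-223-3p) and chr10:71902615-71902636 on the minus strand (miR-21-3p). miR-92a-1-5p lies at chr15:98588565-98588587 on the plus strand, miR-322-5p at chrX:137726198-137726219 on the minus strand and miR-3559-3p at chrX:73660153-73660174 on the minus strand. The miR-155 hairpin sits within Mir155hg, the noncoding RNA gene that carries it, and the miR-3559 hairpin within the span of the protein-coding gene Zdhhc15.

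The seed mates and opposite arms that the results below turn on are shown next, again with seeds in capitals.
miR-146a-5p: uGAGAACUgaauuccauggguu
miR-21-5p: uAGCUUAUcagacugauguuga
miR-92a-3p: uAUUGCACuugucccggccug
miR-322-3p: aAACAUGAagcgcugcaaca
miR-3559-5p: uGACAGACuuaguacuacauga
miR-16-5p: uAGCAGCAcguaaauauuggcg
miR-146a-5p matches miR-146b-5p over its first 17 bases and differs only after them, while miR-16-5p matches miR-322-5p over the seed and no further.

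The 6 libraries were similar in make-up but not in depth. Total counts were 611352, 612743 and 651096 in the vehicle group and 273410, 418742 and 575266 in the APAP group. Every APAP library was thus shallower than every vehicle library, and APAP replicate 1 was the shallowest. With all libraries thinned to its depth, miR-223-3p, miR-322-5p and miR-3559-3p were no longer called. All 6 carried the same lane tag (5) in the table's header. The most abundant miRNA took 20.8 to 24.6% of the counts of a library. Correlations of log2 levels across miRNAs were 0.989 to 0.993 between vehicle libraries, 0.986 to 0.988 between APAP libraries and 0.981 to 0.987 across the groups. Levels below are counts per 1000000 (CPM) after scaling by trimmed mean of M-values (TMM), and they depend on counting error where few reads were counted. The hepatocyte markers fixed for this tissue (miR-122-5p, miR-122-3p, miR-802-5p, miR-192-5p, miR-194-5p and miR-148a-3p) were all detected and summed to 223539 to 278106 CPM in the vehicle livers and 226546 to 263344 CPM in the APAP livers. miR-192-5p and miR-148a-3p made up most of that sum, and the paper describes miR-192 as abundant in several tissues. Of 3 muscle markers, miR-1-3p and miR-206-3p had no reads, and miR-133a-3p had 9, 10 and 13 reads in the vehicle and 0, 5 and 8 reads in the APAP livers, so the muscle sum was 14.4 to 20.3 CPM against 0 to 13.8 CPM and did not overlap. Of 2 pancreas markers, miR-217-5p had no reads and miR-375-3p measured 232 to 320 CPM against 153 to 242 CPM. Of 2 kidney markers, miR-196a-5p had no reads and miR-204-5p measured 12.5 to 46.6 CPM against 18.3 to 62.3 CPM. Both nervous system markers were scarce, at a sum of 11.7 to 20.3 CPM against 2.4 to 14.6 CPM.

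miR-155-5p, which activated macrophages and lymphocytes induce, had the largest change. Its level was 36.8, 28.3 and 15.6 CPM in methylcellulose replicates 1, 2 and 3 and 230.5, 107.9 and 108.3 CPM in the APAP replicates, from 23, 17 and 10 reads and 63, 45 and 63 reads. The groups did not overlap, as in 14.5% of all lines tested, and APAP replicate 1, the shallowest library, was the highest. The log2 fold change was 2.39 (SE 0.31), with an adjusted p of 7.9e-08 in edgeR. Without APAP replicate 1 it was 2.00 (adjusted p = 0.0017 in edgeR). The opposite arm miR-155-3p had 0, 1 and 0 reads in the vehicle and 1, 2 and 2 reads in the APAP livers, too few to test.

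**Figure D1:**
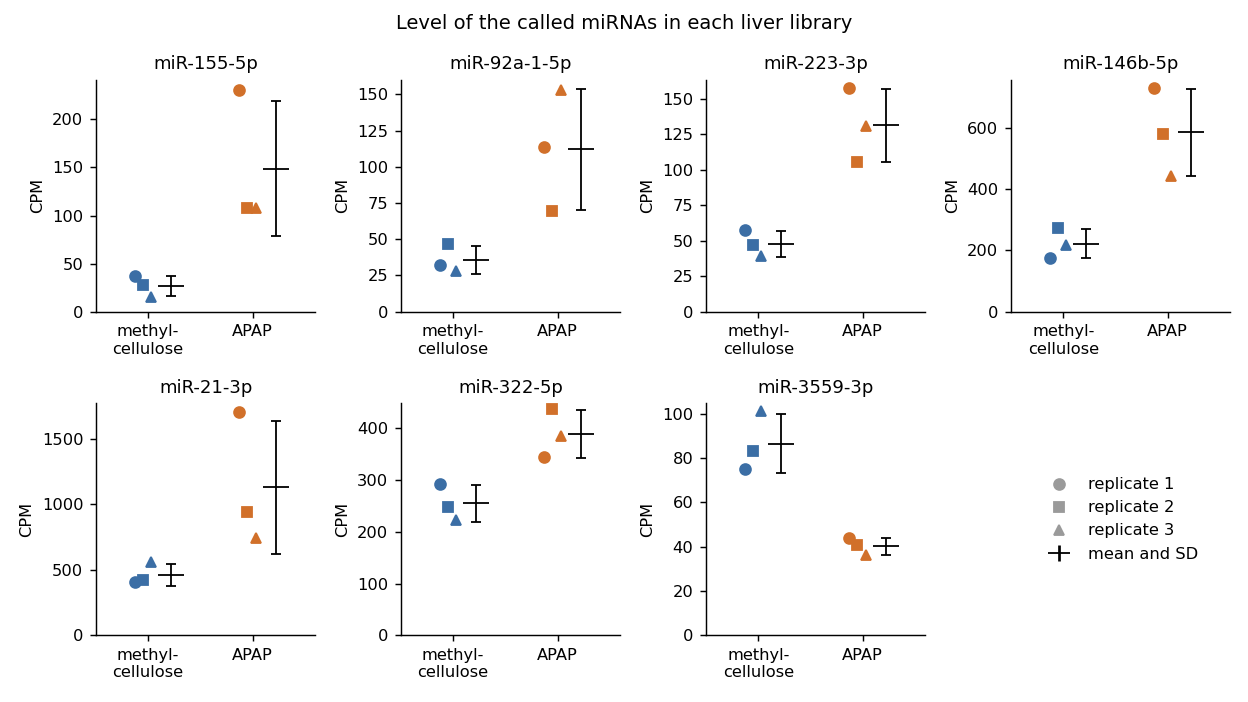
Level in CPM (vertical axes, each starting at 0) of the 7 mature miRNAs past the test in each of the 6 liver libraries, by group on the horizontal axis, with symbols for replicate numbers and black marks for the mean and SD of 3 libraries. In all 7 panels the APAP libraries lie on 1 side of the methylcellulose libraries, and APAP replicate 1 is the highest for miR-155-5p, miR-223-3p, miR-146b-5p and miR-21-3p.

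miR-146b-5p belongs to the miR-146 pair, which NF-κB signalling induces and which dampens Toll-like receptor signalling. It measured 175.8, 271.3 and 216.9 CPM in the vehicle livers and 728.1, 580.1 and 443.5 CPM in the APAP livers. The lowest APAP liver stood well above the highest vehicle liver, and the log2 fold change was 1.38 (SE 0.19, adjusted p = 3.3e-07 in edgeR). DESeq2 on the 6 libraries called it, and in the DESeq2 fit of 54 libraries its adjusted p was 0.432. Its seed mate miR-146a-5p, encoded on another chromosome, did not pass the test. miR-146a-5p levels were 941, 1117 and 1061 CPM in the vehicle and 1259, 690 and 799 CPM in the APAP livers, with a log2 fold change of -0.20 (SE 0.18, adjusted p = 0.742 in edgeR). miR-146a-5p was the more abundant of the pair in all 6 livers. The difference between the pair was not tested, and the alignment allowed mismatches, so some reads of these near-identical miRNAs may have been counted for the other, which was not tested.

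miR-223-3p, a miRNA of neutrophils and other myeloid cells, was 57.5, 46.6 and 39.0 CPM in the vehicle and 157.3, 105.5 and 130.7 CPM in the APAP livers. The groups were separate, at a log2 fold change of 1.44 (SE 0.26, adjusted p = 3.9e-05 in edgeR). These levels rest on 25 to 36 reads per vehicle library and 43 to 76 reads per APAP library. With all libraries thinned to the depth of the shallowest the log2 fold change was 1.12 and the adjusted p in edgeR 0.0648. DESeq2 on the 6 libraries called miR-223-3p, and in the DESeq2 fit of 54 libraries the adjusted p was 1.

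Not every leukocyte miRNA rose. Of 11 tested members of a list of myeloid and lymphoid miRNAs, 3 passed the test, all higher (miR-155-5p, miR-146b-5p and miR-223-3p), and 0 lower, against 3.21% of all lines, with a list median of 0.04 and a median over all tested lines of 0.01 on the log2 scale. This list, like the others below, was written with the study's results for these data known. Its count is a description and no test of the list. The abundant pan-leukocyte miR-142-5p measured 2017, 2194 and 2268 CPM in the vehicle and 2159, 1997 and 2665 CPM in the APAP livers, so the groups overlapped. miR-142-3p overlapped as well, at 273 to 315 CPM against 280.2 to 340.3 CPM. miR-150-5p, a miRNA of mature lymphocytes, was 205, 211 and 223 CPM in the vehicle and 187, 141 and 182 CPM in the APAP livers, all 3 below the vehicle range, without passing the test (adjusted p = 0.641 in edgeR). The 6 leukocyte markers chosen for these samples were all detected and summed to 2765 to 3078 CPM in the vehicle and 3224 to 3810 CPM in the APAP livers. The called miR-155-5p, miR-146b-5p and miR-223-3p are 3 of its 6 members, so that sum is not separate from their calls, and it was not tested. Its other members are miR-142-5p, miR-142-3p and miR-150-5p, whose levels above overlapped between the groups or were lower after APAP. In whole liver, a larger number of cells of a type and more RNA per cell cannot be told apart.

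miR-21 is raised in many injured and fibrotic tissues, and its 5p arm is the guide. The passenger arm miR-21-3p rose. It measured 406, 421 and 557 CPM in the vehicle and 1705, 940 and 746 CPM in the APAP livers, a log2 fold change of 1.28 (SE 0.20, adjusted p = 3.4e-06 in edgeR). Without APAP replicate 1, the highest, it was 0.85 (adjusted p = 0.0113 in edgeR). DESeq2 on the 6 libraries called miR-21-3p, and the DESeq2 fit of 54 libraries gave an adjusted p of 1. The guide miR-21-5p was among the most abundant miRNAs of the liver, at 72063, 79945 and 75106 CPM in the vehicle and 99638, 83824 and 94411 CPM in the APAP livers. Its groups did not overlap either, but its log2 fold change was 0.29 (SE 0.09) and its adjusted p 0.0643 in edgeR. Without APAP replicate 2 that adjusted p was 0.0325. Of the reads of both arms, miR-21-3p held 0.560, 0.524 and 0.736% in the vehicle and 1.68, 1.11 and 0.784% in the APAP livers, so the nearest libraries of the groups were close.

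miR-92a-1-5p is the passenger arm of 1 hairpin of the miR-17-92 cluster, a Myc target that promotes proliferation. Its level was 32.0, 46.6 and 28.1 CPM in the vehicle and 113.4, 69.5 and 153.0 CPM in the APAP livers, with 18 to 28 and 29 to 89 reads. The groups were separate, and the log2 fold change was 1.68 (SE 0.29, adjusted p = 3.1e-05 in edgeR). DESeq2 on the 6 libraries called it, and in the DESeq2 fit of 54 libraries its adjusted p was 0.260. The guide arm miR-92a-3p, which a further hairpin on chromosome X also makes, was about 12487 ± 1049 CPM (SD, n = 3) in the vehicle and 13244 ± 1251 CPM (SD, n = 3) in the APAP livers. Its log2 fold change of 0.08 (SE 0.12) did not pass (adjusted p = 0.859 in edgeR). The share of miR-92a-1-5p in the reads of both arms was 0.260, 0.341 and 0.242% in the vehicle and 0.780, 0.579 and 1.13% in the APAP livers.

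The other miRNAs cut from the same cluster transcript, within 704 bases of miR-92a-1-5p, did not pass the test. Their log2 fold changes were 0.11 for miR-17-5p, 0.18 for miR-18a-5p, 0.62 for miR-19a-3p, 0.46 for miR-20a-5p and 0.09 for miR-19b-3p. Among them the groups were separate for miR-20a-5p, at 176, 171 and 144 CPM in the vehicle and 252, 199 and 227 CPM in the APAP livers (adjusted p = 0.336 in edgeR). In the list of cell cycle clusters (miR-17-92, miR-106b-25 and their relatives) 1 of 12 tested members passed, higher, and 0 were lower, against 3.21% of all lines. The 1 was miR-92a-1-5p itself. The log2 fold changes of the 12 ran from 0.04 to 1.68 with a median of 0.17, and members of a cluster share a transcript, so they are not independent.

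miR-322-5p, the rodent counterpart of miR-424 and a member of the miR-16 seed family that restrains cyclins, was 293, 248 and 223 CPM in the vehicle and 344, 436 and 385 CPM in the APAP livers. The groups were separate, at a log2 fold change of 0.62 (SE 0.18, adjusted p = 0.0414 in edgeR). This call was the least firm of the 7. The table lists miR-322-5p on 2 lines with identical counts, and with 1 line per mature miRNA the adjusted p was 0.0799 in edgeR. It was also above the threshold when vehicle replicate 2 (0.201), vehicle replicate 3 (0.258), APAP replicate 2 (0.166) or APAP replicate 3 (0.114) was left out, with no filter on low counts (0.206), at equal depth (0.425) and in DESeq2 (0.167 on the 6 libraries and 1 on all 54).

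Other members of the miR-16 seed family did not pass. miR-16-5p measured 4250, 4470 and 4230 CPM in the vehicle and 4855, 4849 and 4382 CPM in the APAP livers, which overlapped. Log2 fold changes were 0.12 (SE 0.13) for miR-16-5p, 0.15 (SE 0.17) for miR-497-5p, -0.04 (SE 0.18) for miR-195-5p and -0.52 (SE 0.42) for the scarce miR-15b-5p. The passenger miR-322-3p, at 83.1, 79.9 and 40.6 CPM against 51.2, 59.9 and 49.9 CPM, had a log2 fold change of -0.34 (SE 0.30, adjusted p = 0.742 in edgeR). The neighbours of miR-322 on chromosome X, miR-450a-5p, miR-450b-5p, miR-542-3p and miR-351-5p, had log2 fold changes of 0.13 to 0.40 and none passed.

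miR-3559-3p was the 1 miRNA past the test that fell. It measured 75.1, 83.2 and 101.4 CPM in the vehicle and 43.9, 40.8 and 36.1 CPM in the APAP livers, a log2 fold change of -1.13 (SE 0.29, adjusted p = 0.0126 in edgeR). The counts were 47, 50 and 65 reads against 12, 17 and 21 reads. Its other arm miR-3559-5p, at 145, 225 and 201 CPM against 128, 180 and 184 CPM, overlapped between the groups (log2 fold change -0.18, SE 0.20). The call of miR-3559-3p was lost without vehicle replicate 3 (adjusted p = 0.0637 in edgeR) and without APAP replicate 3 (0.114). It was also lost at equal depth (0.287 in edgeR) and in DESeq2, on the 6 libraries (0.167) and on all 54 (0.844).

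The arms of a hairpin could be compared for 46 hairpins with both arms tested. The log2 fold changes of the arms had the same sign in 30 of 46, they differed by a median of 0.22, and 0 hairpins had both arms past the test. The share of the less abundant arm was separate between the groups in 11 of 46 hairpins (23.9%). For all 4 of the called miRNAs whose opposite arm was also tested the share was among these 11. miR-322-3p held 22.1, 24.4 and 15.4% of the reads of both arms in the vehicle and 12.96, 12.1 and 11.5% in the APAP livers. miR-3559-3p held 34.1, 27.0 and 33.5% in the vehicle and 25.5, 18.5 and 16.4% in the APAP livers. The levels that gave the calls enter these shares, so they are given without a test.

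**Figure D2:**
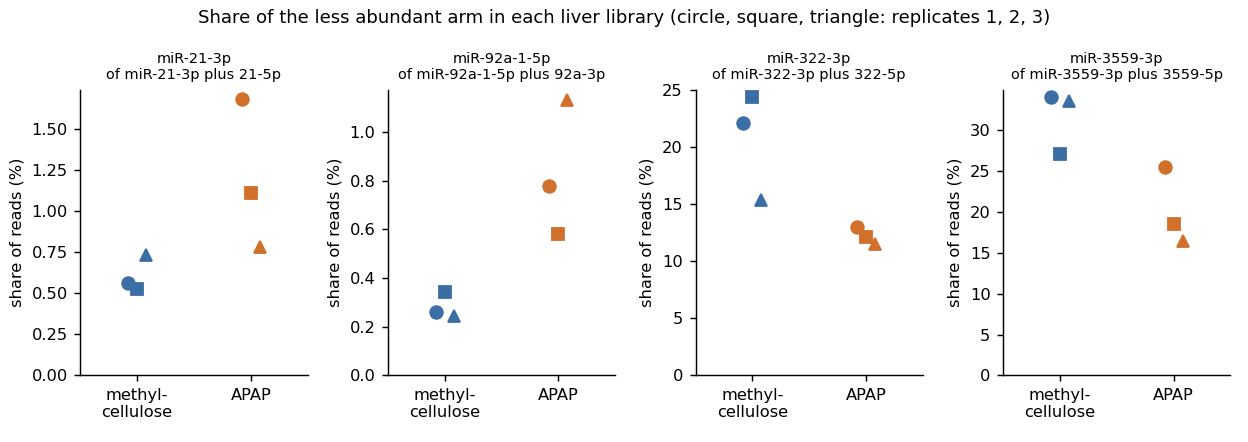
Share of the less abundant arm in the CPM of both arms (percent, vertical axes from 0) in each liver library, for the 4 hairpins with a called arm and both arms tested. The shares of miR-21-3p and miR-92a-1-5p are higher in all 3 APAP libraries than in any vehicle library, and those of miR-322-3p and miR-3559-3p are lower.

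The miRNAs that make up most of the liver's small RNA stayed near their vehicle levels. miR-122-5p, the defining miRNA of hepatocytes, measured 22047, 20385 and 20751 CPM in the vehicle and 20496, 22596 and 20313 CPM in the APAP livers. miR-22-3p, the most abundant, measured 240017, 211704 and 227538 CPM against 228125, 223240 and 232043 CPM. miR-192-5p followed at 144381 to 184347 CPM against 138408 to 167671 CPM. Each of these overlapped between the groups. So did miR-148a-3p, at 50553 to 72767 CPM against 61547 to 65696 CPM, and miR-27b-3p and miR-26a-5p. Of the 10 most abundant miRNAs, miR-21-5p was the one with every APAP liver above every vehicle liver. Every APAP liver was below in miR-143-3p, a smooth muscle and mesenchymal miRNA (52428 to 56313 CPM against 48377 to 50297 CPM), in miR-10a-5p (42615 to 43814 CPM against 37509 to 42094 CPM) and in miR-30a-5p (31427 to 33555 CPM against 27561 to 31177 CPM). None of these passed the test, and the groups were separate in 14.5% of all lines tested.

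Across all 249 lines the median log2 fold change was 0.01, the 5th and 95th percentiles were -0.50 and 0.63, and 215 lines (86.3%) moved by under 0.5. Groups were separate in 36 lines (14.5%), 20 with APAP above and 16 below. By a fold of at least 1.5 and an unadjusted p under 0.05, 15 lines passed (6.02%), 12 higher and 3 lower. An unadjusted p under 0.05 in edgeR was reached by 23 lines, 18 higher and 5 lower. Just short of the adjusted threshold with separate groups stood 3 scarce miRNAs that were picked out after their values were seen, each at an adjusted p of 0.0663 in edgeR. miR-3473 went from 9.6, 10.0 and 10.9 CPM to 32.9, 28.8 and 24.1 CPM, a log2 fold change of 1.43 (SE 0.46), from 6, 6 and 7 reads against 9, 12 and 14 reads. Its vehicle levels lay below the cutoff of the filter on low counts, so only its APAP levels brought it into the test. With all 12 liver libraries in the fit it passed. miR-3585-5p measured 20.8, 23.3 and 20.3 CPM against 36.6, 36.0 and 63.6 CPM, and miR-582-3p 28.8, 25.0 and 20.3 CPM against 47.6, 40.8 and 65.3 CPM.

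**Figure D3:**
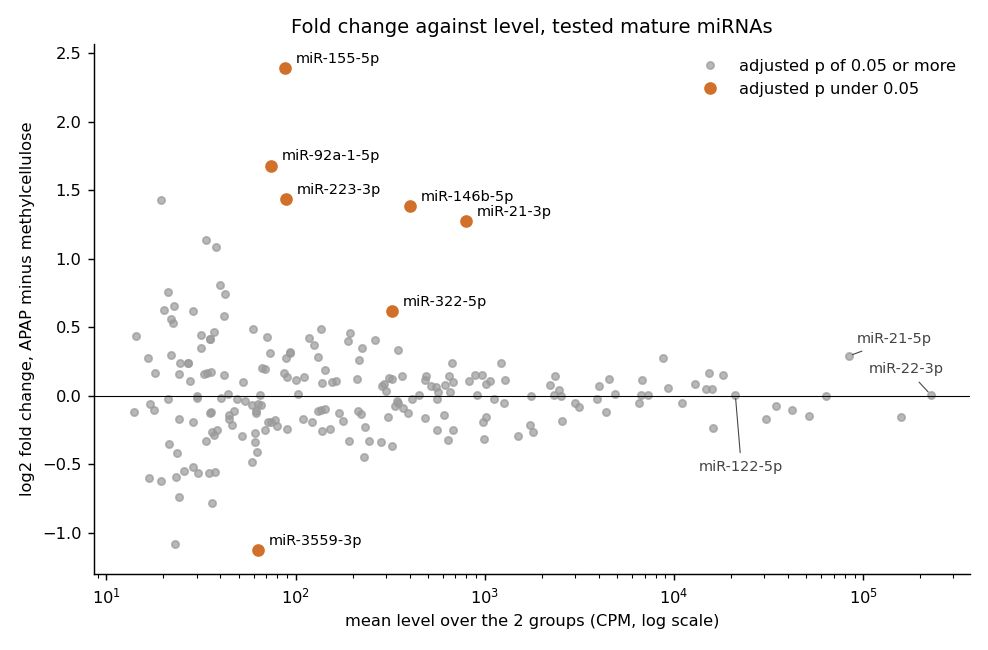
Log2 fold change, APAP minus methylcellulose (vertical axis), against the mean level of the 2 groups in CPM (horizontal axis, log scale) for the 217 tested mature miRNAs, 1 point each. The 7 miRNAs past the test are orange and named. The called miRNAs have mean levels under 1000 CPM, and the abundant miR-22-3p, miR-21-5p and miR-122-5p lie near 0.

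Lists of miRNAs grouped by cell type or process were read by their counts, against 3.21% of all lines called. They were written with the study's results for these data known, so the counts are a description. In the hepatocyte list 0 of 29 tested members passed, with log2 fold changes of -0.78 (miR-194-3p) to 0.43 and a median of 0.01. At an unadjusted p under 0.05 in edgeR 1 of the 29 was higher and 2 were lower, and DESeq2 on the 6 libraries called 0 of them. Leaving out vehicle replicate 1 called miR-192-5p lower (-0.28, adjusted p = 0.0294 in edgeR), and leaving out APAP replicate 2 called miR-21-5p higher. The inflammatory response list had 3 of 8 higher (miR-155-5p, miR-146b-5p and miR-21-3p), 0 lower and a median of 0.37. The injury and fibrosis list had 1 of 11 higher (miR-21-3p), 0 lower and a median of 0.24, and its miR-29 and miR-34 members did not pass. These lists overlap, so the same miRNAs count in more than 1.

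No member passed in the remaining lists. These were the p53 and miR-34 list (4 tested, all with log2 fold changes below 0), hypoxia and oxidative stress (7), the let-7 family (9, from -0.16 to 0.29), the miR-29 family (4), biliary and epithelial (9), stellate and mesenchymal (10), endothelial (6), red blood cell (7), muscle (1), nervous system (2), pancreas (1), kidney and gut (5) and the Dlk1-Dio3 cluster (1). DESeq2 on the 6 libraries called 0 of their members too, and miR-375-3p was the 1 with an unadjusted p under 0.05 in edgeR. Without APAP replicate 2, miR-10b-5p, a member of 3 of these lists, passed as lower (-0.71, adjusted p = 0.0055 in edgeR). miR-375-3p, known from pancreatic islets, was the lowest of the biliary and epithelial list at a log2 fold change of -0.45 (SE 0.20, adjusted p = 0.382 in edgeR), with 232 to 320 CPM in the vehicle and 153 to 242 CPM in the APAP livers. miR-451-5p, which is made in red blood cells, was 534 to 811 CPM in the vehicle and 519 to 659 CPM in the APAP livers, so the groups overlapped. The summed levels of the red blood cell, endothelial and biliary markers overlapped between the groups, and those of the stellate and mesenchymal markers were 53517 to 57553 CPM in the vehicle and 49535 to 51756 CPM in the APAP livers. miR-143-3p made up most of that last sum, and its members did not move together. Log2 fold changes were -0.15 for miR-143-3p, -0.12 for miR-145-5p, 0.24 for miR-199a-3p, 0.19 for miR-199a-5p and 0.65 for miR-214-3p.

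**Figure D4:**
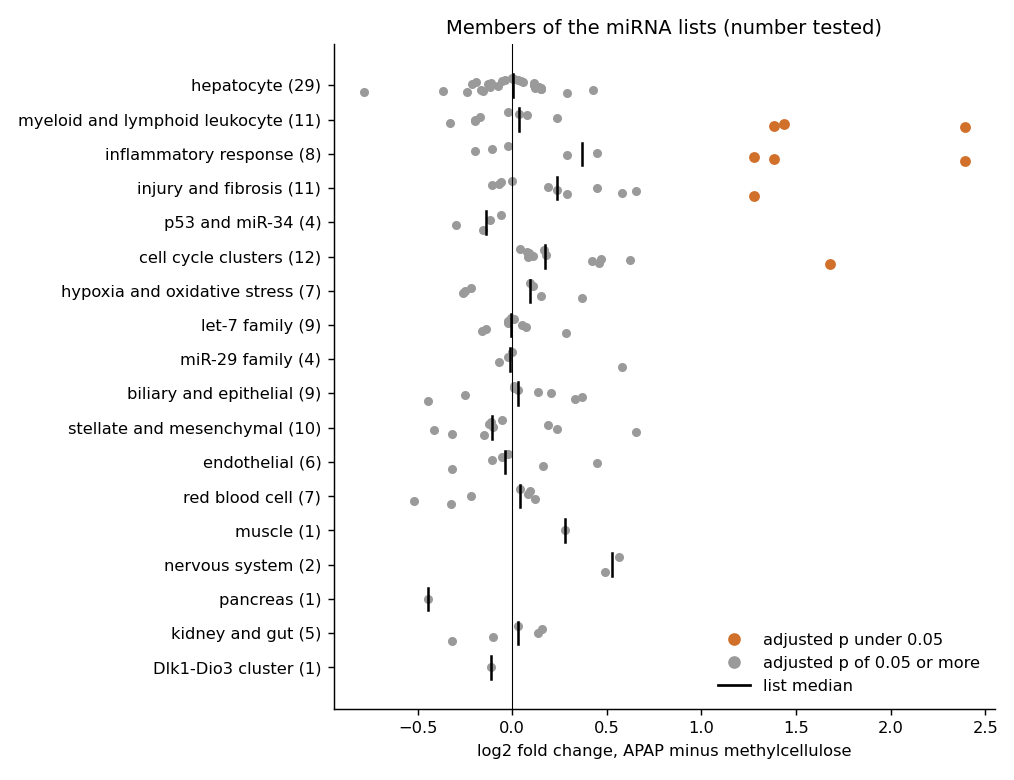
Log2 fold change, APAP minus methylcellulose (horizontal axis), of every tested member of each list, 1 point per miRNA, with the number tested after the list's name and a black bar at the list median. Orange points passed the test. They lie in 4 overlapping lists (leukocyte, inflammatory response, injury and fibrosis, cell cycle clusters), and the 29 hepatocyte members lie on both sides of 0.

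The response to CCl4, a solvent activated by the same zone of hepatocytes and given by gavage at 1500 mg/kg in corn oil 24 h earlier, was compared with that to APAP through an interaction term over 12 liver libraries. In its own fit CCl4 changed 7 of 254 lines (2.76%), 3 higher and 4 lower. The 3 were miR-146b-5p, miR-155-5p and miR-223-3p, with log2 fold changes of 2.66 (SE 0.19), 2.06 (SE 0.27) and 1.83 (SE 0.22). In the interaction 0 of 262 lines passed (0%) in edgeR, 14 had an unadjusted p under 0.05, and DESeq2 called 1, miR-146b-5p. Doses, vehicles and lane tags differed, since 2 CCl4 libraries carried another lane tag (6).

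**Figure D5:**
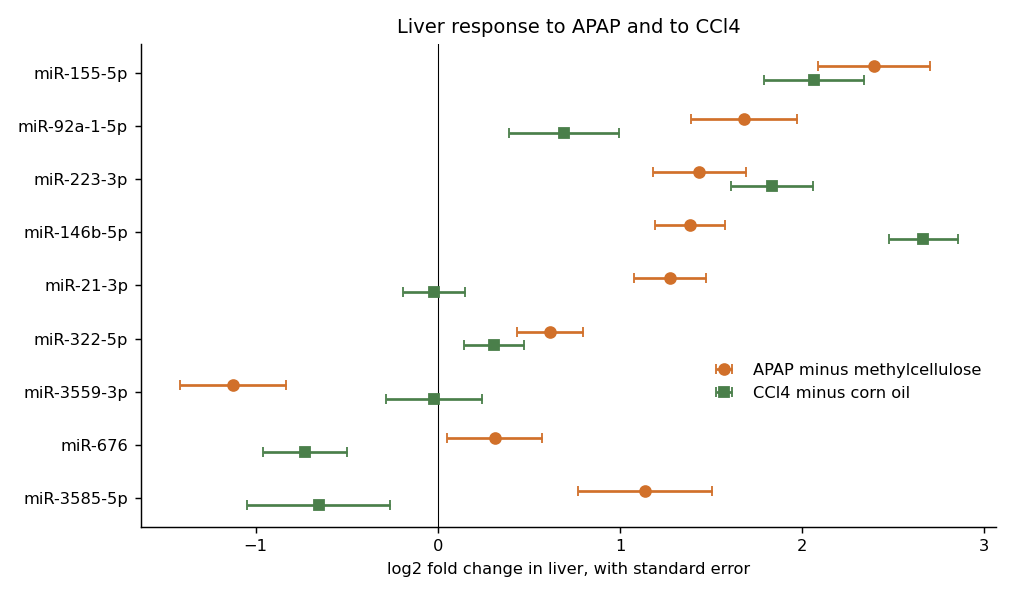
Log2 fold change in liver (horizontal axis) with its standard error as a bar, for APAP minus methylcellulose (circles) and CCl4 minus corn oil (squares), 3 libraries per group, for the 7 called miRNAs and for miR-676 and miR-3585-5p. The estimates of miR-155-5p are 2.39 and 2.06, those of miR-146b-5p 1.38 and 2.66, and those of miR-21-3p and miR-3559-3p are near 0 with CCl4. No difference between the toxicants passed the interaction test.

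The 5 smallest p of the interaction belonged to miR-146b-5p, miR-21-3p, miR-676, miR-3559-3p and miR-3585-5p. For miR-146b-5p the APAP response minus the CCl4 response was -1.29 on the log2 scale (SE 0.30), which did not pass (adjusted p = 0.0815 in edgeR). Scaled over the 12 libraries, it measured 250, 191 and 219 CPM with corn oil and 1509, 1650 and 1010 CPM with CCl4. On the 10 libraries of 1 lane tag its difference was -1.53 (adjusted p = 0.0101 in edgeR). miR-21-3p measured 439, 753 and 667 CPM with corn oil and 653, 560 and 618 CPM with CCl4, which overlapped, and its difference was 1.29 (SE 0.34, adjusted p = 0.134 in edgeR). It passed without APAP replicate 2 (0.0436) and without APAP replicate 3 (0.00888). miR-3559-3p measured 65.4, 80.6 and 50.0 CPM with corn oil and 49.7, 69.2 and 67.0 CPM with CCl4, a difference of -1.13 (SE 0.35, adjusted p = 0.273 in edgeR). miR-676 and miR-3585-5p differed by 1.04 (SE 0.30, adjusted p = 0.240 in edgeR) and 1.78 (SE 0.57, adjusted p = 0.273 in edgeR). For miR-155-5p the difference was 0.33 (SE 0.50), for miR-223-3p -0.40 (SE 0.32) and for miR-92a-1-5p 0.99 (SE 0.46), none past the test.

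In plasma of APAP and vehicle rats, where 61 of 227 lines passed (26.9%), the miRNAs that rose in liver did not form 1 pattern. miR-146b-5p, at 742, 729 and 425 CPM with vehicle and 486, 554 and 832 CPM with APAP, and miR-223-3p, at 2268, 1609 and 589 CPM and 1000.4, 1324 and 1991 CPM, overlapped between the groups. So did miR-322-5p, at 151, 57.1 and 65.5 CPM with vehicle and 58.5, 62.7 and 76.1 CPM with APAP. miR-155-5p (25.6, 6.6 and 0 CPM against 52.7, 35.6 and 45.7 CPM) and miR-21-3p (305, 239 and 65.5 CPM against 983, 389 and 462 CPM) were separate without passing the test (adjusted p = 0.106 and 0.0815 in edgeR). Levels in vehicle replicate 3 came in steps of 32.7 CPM, so a 0 there cannot be told from a low level. Its 0 for miR-155-5p and miR-3559-3p and its 65.5 CPM for miR-21-3p thus rest on very few reads. Whether these plasma differences hold without that library was not tested. miR-3559-3p, which fell in liver, was 40.5, 41.7 and 0 CPM in vehicle and 222, 154 and 165 CPM in APAP plasma, a log2 fold change of 2.28 (SE 0.56, adjusted p = 0.012 in edgeR). With total counts as the scale it was 1.09 (adjusted p = 0.138 in edgeR). On that scale the log2 fold change of miR-155-5p was 0.40 in place of 1.51, that of miR-21-3p 0.11 in place of 1.45, and those of miR-146b-5p and miR-223-3p -1.06 each in place of -0.04 and -0.07, none past the test on either scale. The median log2 fold change of all plasma lines moved from 0.21 with TMM to -0.92. In plasma APAP replicate 1, miR-22-3p held 37.4% of the reads but measured 1072850 CPM with TMM, so that library's levels depend on the scale. Whether miR-155-5p and miR-21-3p stay separate with total counts was not tested.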

How the data were processed

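Per the labels and the study's methods, total RNA of liver was made into TruSeq small RNA libraries and sequenced on a GAIIx at 36 bases. The authors aligned the reads with OSA to Rnor_5.0 and counted them on mature miRNAs of miRBase, allowing mismatches and leaving out reads with many genomic locations, and they deposited raw counts, 1 column per library, not normalized. Columns were matched to samples by the sample description. Under R 4.3.3, edgeR 4.0.16 gave the main test: libraries were scaled by TMM, and glmQLFTest was run two-sided after glmQLFit. The filter, filterByExpr, set its cutoff at the CPM of 10 counts in a library of median size. It kept lines reaching that cutoff in at least 3 libraries, with a total of at least 15 counts. Benjamini-Hochberg adjustment covered every line tested, with a threshold of 0.05. The standard error is the log2 fold change divided by the square root of F. Tested lines held 99.9% of the reads. The script was tested on simulated data. DESeq2 1.42.0 was an alternative, since the authors used it. Tables and plots used Python 3.11.15, pandas 2.3.3 and matplotlib 3.10.9. Lines with a fold of at least 1.5 and an unadjusted p under 0.05 follow a linear reading of the study's criterion. Libraries of a group are separate animals.

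Named were the miRNAs that the study names for this liver, those past the adjusted threshold with separate groups, their other arms, the 2 smallest p of each list, the 10 most abundant and the 5 smallest p of the interaction. Fold changes are printed for those called, their arms, their seed and cluster mates, the interaction and those near the threshold, and levels for the others. The members and lists were chosen with earlier results of these data known. No 2 libraries were alike within counting noise. Alternatives changed the scaling, filter, tool, depth, copies, libraries in the fit and the replicate block.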

Additional observations from a re-analysis of the deposited data

How the results depend on the processing

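The calls of miR-155-5p, miR-146b-5p, miR-21-3p, miR-92a-1-5p and miR-223-3p held with each of the 6 libraries left out. miR-155-5p passed in 17 of 17 alternatives, miR-146b-5p in 16, miR-21-3p, miR-92a-1-5p and miR-223-3p in 15 each, miR-3559-3p in 11 and miR-322-5p in 7. Lines higher after APAP numbered 7, against 3 with the replicate block, 4 at equal depth and 5 with DESeq2 on the 6 libraries. In a DESeq2 fit of all 54 libraries with a prior on fold changes there was 1. The line lower after APAP was 1, against 0 with the replicate block, at equal depth and with either DESeq2 fit, and 0 to 2 with a library left out. No pairing by replicate number was seen: same-numbered libraries correlated at 0.06, -0.04 and 0.12 in their deviations from the group means, and differently numbered ones at -0.12 to 0.08. So few libraries cannot exclude a pairing. With the replicate block in edgeR, the adjusted p was 0.0713 for miR-21-3p, 0.0573 for miR-92a-1-5p, 0.0658 for miR-3559-3p and 0.205 for miR-322-5p. By fold and unadjusted p, 15 lines passed, against 27 with no filter on low counts and 2 with the threshold read as log2. The difference between APAP and CCl4 gave 0 lines, against 1 with total counts (with or without the most abundant miRNA), 1 with the replicate block, 1 on the libraries of 1 lane tag and 1 with DESeq2 (added after seeing the data), 3 with no filter, and 0 to 2 with a library left out. In that DESeq2 fit of 54 libraries the adjusted p was 0.432 for miR-146b-5p, 0.260 for miR-92a-1-5p, 0.844 for miR-3559-3p and 1 for miR-21-3p, miR-223-3p and miR-322-5p. The log2 fold change of miR-676, 0.31, was -0.15 at equal depth, and that of miR-10b-5p, -0.32, ranged from -0.71 (without APAP replicate 2, adjusted p = 0.0055 in edgeR) to 0.028 (without vehicle replicate 1). Leaving out vehicle replicate 1 called miR-192-5p lower (-0.28, adjusted p = 0.0294 in edgeR). The cause was not tested in any of these. Depth limits the scarce miRNAs: miR-155-5p and miR-92a-1-5p rest on 10 to 89 reads a library.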

Other observations

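Among the 258 lines with reads that were too scarce to test, 1 was read in all 3 APAP livers and in no vehicle liver, and 2 were read in all 3 vehicle livers and in no APAP liver. The first was miR-341, at 1, 2 and 1 reads. The others were miR-762, at 1, 1 and 1 reads, and let-7c-1-3p, at 1, 3 and 1 reads. The counts of these lines are at the limit of detection, and the largest total of any untested line over the 6 libraries was 61 reads. With no filter on low counts, miR-27a-5p (2, 1 and 3 reads against 5, 5 and 15 reads) and miR-320-5p (2, 9 and 1 reads against 29, 3 and 9 reads) were called. miR-27a-5p was also called without vehicle replicate 3 and without APAP replicate 2.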
